A study of Bos taurus with 6 samples.

Results

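The transglutaminase family was examined in bovine chondrocytes from the deep zone of articular cartilage, the layer nearest to the bone, with and without induction of the transcription factor CREB5. Its members were taken by symbol, TGM1 to TGM7 and F13A1, so 8 symbols were sought among the 27607 genes of the deposited table. Rows were found for 7 of them, and TGM4, a prostate enzyme, was not analysed here. The family was selected on the Dox+ against Dox- values of TGM3 in these same libraries. Its values in that comparison are therefore given as a description, without p-values, and no evidence is drawn from them.

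Cells of both groups were infected with a lentivirus from which doxycycline induces bovine CREB5, and 11 days of G418 (500 µg/ml) removed those without it. They then spent 3 days on low attachment plates in medium with 10% FBS, 20 ng/ml TGFb2 and 100 ng/ml TGFa. Doxycycline was left out for 3 libraries (Dox-) and added at 1 µg/ml for 3 others (Dox+), each group numbered 1 to 3 and drawn from 3 separately collected knees. None of the 6 libraries had doxycycline without the CREB5 vector, so the drug and the induced factor cannot be told apart. The treatment protocol gives that dose in µg/ml and the series' design text in mg/ml, and which number belongs to which knee is not stated. CREB5 itself was 308 to 510 normalized counts (reads divided by the library's size factor) in Dox- and 12413 to 21964 in Dox+ libraries, so each library stood on the side of its label. Per-library values are given below in the order of the numbers 1, 2 and 3. Depth ran from 20063379 reads (Dox+ 3) to 122366790 reads (Dox+ 2). All 12 chondrocyte markers of a fixed list had reads, and their summed level was 72539 to 181796 in Dox- and 290519 to 627186 in Dox+, the latter mostly PRG4 (lubricin). Without PRG4 the sum was 71967 to 180090 in Dox- and 37302 to 61207 in Dox+, and the median log2 fold change of the 11 tested markers was -1.48, with 9 of them below 0. Limma called 2 of the 11 higher and 2 lower, beside 2.52% and 0.357% of all tested genes, or 2 and 5 with the number as a block, beside 4.86% and 1.65%.

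Transglutaminases are calcium-dependent enzymes that join the side chains of a glutamine and a lysine, so that proteins become linked by a bond that most proteases cannot cut. TGM1, TGM3 and TGM5 are best known from the epidermis, where they weld the cornified envelope, and TGM3 is made as a zymogen that proteases such as cathepsin L cleave. TGM2, the tissue transglutaminase, and F13A1, the A subunit of coagulation factor XIII, link matrix and fibrin proteins, and both have been associated with maturing chondrocytes of cartilage. EPB42 is a relative that lost the catalytic cysteine and serves as a membrane skeleton protein of red cells.

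The family's reads belonged mostly to F13A1 in Dox- cells and mostly to TGM3 in Dox+ cells. F13A1 held 98.5%, 94.1% and 94.8% of the family's counts without doxycycline and 23.8%, 3.01% and 5.68% with it. TGM3 held 0.0075% of them in Dox- 1, none in the other Dox- libraries, and 72.5%, 85.7% and 91.2% with doxycycline. These are shares of reads that are not corrected for transcript length, so they compare libraries and not the levels of different genes. The family's summed normalized count was 3728 ± 3946 in Dox- and 6867 ± 2005 in Dox+ libraries (SD, n = 3), and the groups overlapped, since Dox- 1 (8168) lay above Dox+ 2 (4716) and Dox+ 3 (7202). Fewer cells making a transcript and less of it per cell cannot be told apart in these bulk libraries.

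**Figure D1:**
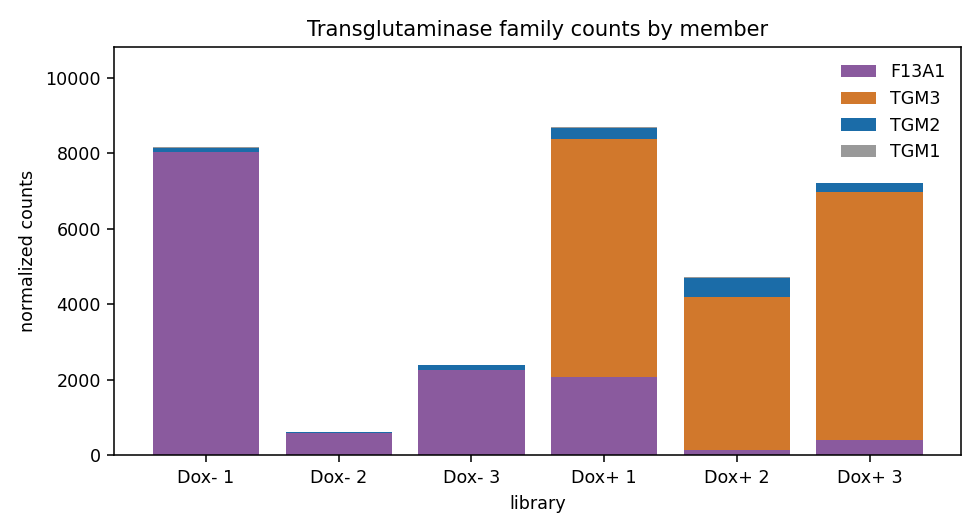
Normalized counts of the family in each library (y axis, from 0), stacked by member for the 4 members with a mean of at least 10. F13A1 fills most of the Dox- bars and TGM3 most of the Dox+ bars, while the total varies from 623 (Dox- 2) to 8683 (Dox+ 1).

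TGM3 (ENSBTAG00000001785) was close to silent without doxycycline and abundant with it. Without the drug it had 1, 0 and 0 reads, or 0.613, 0 and 0 normalized counts. With it, the reads were 3719, 9157 and 2823, or 6293, 4041 and 6565 normalized counts. Every Dox+ library was therefore high, every Dox- library was under the floor of 3 reads, and the groups did not overlap. The ratio of pooled reads, scaled by depth, was 18830, with a 95% exact interval of 3379 to 743792 that covers counting error only. On the scale of log2(normalized count + 1) the difference was 12.20 (SE 0.39), a size that the added 1 sets in part, since it was 13.04 with an added 0.5 and 10.36 with an added 4. TGM3 passed the filter on a mean of at least 10 only through its Dox+ libraries. Among the 11515 genes with at most 1 Dox- read over the 3 libraries, 82 had a Dox+ mean of at least 10, 14 of at least 100 and 3 of at least 1000. TGM3 was 1 of those 3, with PLPPR4 and CALCB.

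The Dox+ libraries differed little among themselves in TGM3, with the highest 1.62 times the lowest. Their CREB5 levels stood at 20935, 12413 and 21964, so the library with the least CREB5 also had the least TGM3. That library, Dox+ 2, had the most TGM2 (523 normalized counts, against 298 in Dox+ 1 and 226 in Dox+ 3). With 3 libraries no relation between these levels was tested.

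TGM2 (ENSBTAG00000016208) was higher in every Dox+ library than in any Dox- library. Its Dox- libraries held 107, 19.2 and 120 normalized counts, and its Dox+ libraries 298, 523 and 226. Dox- 2 was the low library of its group, with 13 reads, whereas Dox+ 2 was the high one of the other group, with 1186 reads. The Dox+ to Dox- ratio was accordingly 27.2 for number 2, and 2.79 and 1.88 for numbers 1 and 3. The log2 difference was 2.36 (SE 0.67), and it was 1.53 without Dox- 2, so that 1 library of few reads carried much of its size.

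F13A1 (ENSBTAG00000007268) differed more between the numbered cultures than between the treatments, and was lower with doxycycline in each of them. It stood at 8042, 586 and 2267 normalized counts without doxycycline and at 2070, 142 and 409 with it. Number 1 was the highest and number 2 the lowest in both groups, and the groups overlapped, with Dox+ 1 above Dox- 2. Within a group, the highest library was 13.7 times the lowest in Dox- and 14.6 times in Dox+, where the median over all tested genes was 1.57 times in Dox- libraries. Between libraries of the same number, Dox- was 3.89, 4.12 and 5.54 times Dox+ for numbers 1, 2 and 3. The log2 difference was -2.15 with an SE of 1.07, and with the number as a block the same difference had an SE of 0.19.

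The residual SD of F13A1 around the group means was 1.92 on the log2 scale, larger than that of 99.0% of the 13180 tested genes. With the number as a block it was 0.19, larger than that of 35.3% of them. For TGM2 it was 1.11 without the block and 1.45 with it, the latter larger than that of 99.2% of the genes. TGM3 stood near the middle of all genes, at 0.39 and 0.30, where the medians were 0.35 and 0.26.

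TGM1 (ENSBTAG00000003920), the membrane-anchored keratinocyte enzyme, had few reads throughout. It had 31, 12 and 9 reads without doxycycline, or 19.0, 17.7 and 5.50 normalized counts, and 13, 18 and 0 reads with it, or 22.0, 7.94 and 0. The groups overlapped, and the only library without a read was Dox+ 3, the shallowest, where 3 reads are worth 6.98 normalized counts. The log2 difference was -1.19 (SE 1.16), and 0.09 without Dox+ 3. It was -0.43 with the block and both libraries of number 3 left out, so its sign turned only where Dox+ 3 alone was missing.

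**Figure D2:**
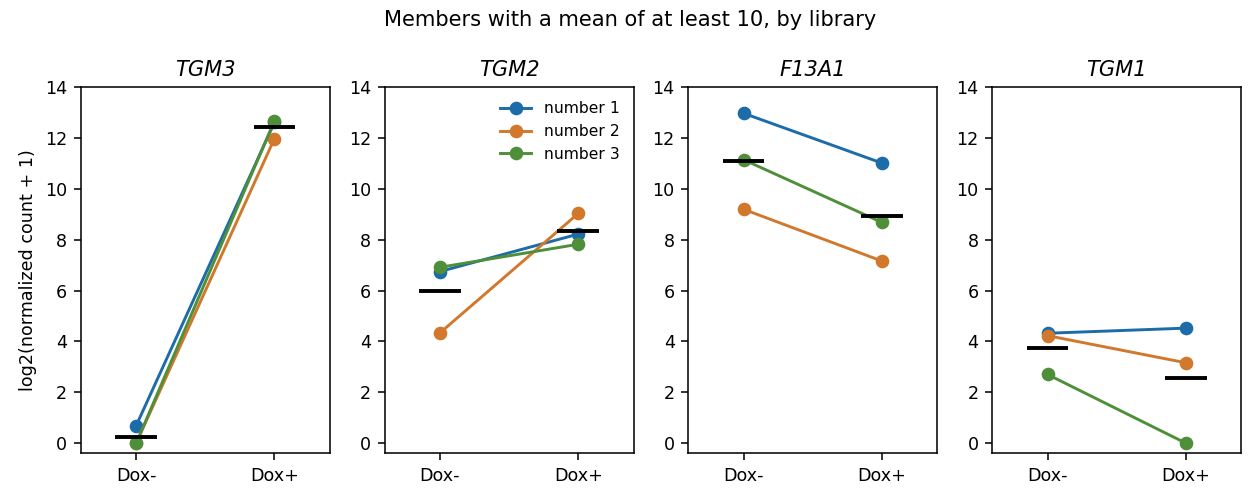
Log2(normalized count + 1) of the 4 members with a mean of at least 10 (y axis) in Dox- and Dox+ libraries, with lines joining libraries of the same number and black bars at the group means. TGM3 goes from 0 or near 0 to the level of 4041 to 6565 normalized counts, the steepest TGM2 line is that of number 2 (27.2 times), the F13A1 lines run parallel downwards, and TGM1 is low throughout.

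The remaining members were not detected or nearly so. TGM5, an epidermal enzyme, and TGM6, a relative expressed in the nervous system, had 0 reads in each of the 6 libraries. A count of 0 allows up to 3 reads, which are worth 1.32 normalized counts in Dox+ 2, the deepest library, and 6.98 in Dox+ 3, the shallowest. TGM7 had 2 reads in Dox+ 2, 1 in Dox+ 3 and 0 elsewhere, at or under the floor of 3 reads in every library, so no fold is given. EPB42 also had 0 reads in each library.

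In the fit over all 13180 genes with a mean of at least 10, which holds 4 members, limma called TGM3 higher in Dox+ cells (adjusted p under 0.05), so 1 of 4 was called higher, beside 2.52% of all tested genes. None of the 4 was called lower, beside 0.357% of all tested genes. At an unadjusted p under 0.05, limma had 2 higher and 0 lower, edgeR called 1 higher and 0 lower and DESeq2 2 higher and 0 lower. Over all 13180 tested genes, 1395 had an unadjusted limma p under 0.05 in either direction. There, edgeR called 304 higher and 39 lower and DESeq2 542 and 159. With the number as a block, limma called TGM2 and TGM3 higher and F13A1 lower, thus 2 higher and 1 lower of 4, beside 4.86% and 1.65% of all tested genes. Since the family was chosen from this comparison, nothing is read from these counts.

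Proteins that handle transglutaminases were represented by a list of 12 genes, chosen, like the other lists, with earlier results of these data known. All 12 were tested, of which 2 rose, 0 fell and 10 did not pass. Of all tested genes 2.52% were called higher and 0.357% lower. Their median log2 fold change was -0.12, against -0.0036 over all tested genes. CTSL, which encodes the protease cathepsin L, stood at 20.2, 2.96 and 1.83 normalized counts without doxycycline, from 33, 2 and 3 reads, and at 858, 459 and 621 with it. The groups did not overlap, and CTSL rose 101-fold (log2 fold change 6.66, SE 0.72, limma adjusted p = 0.0013). Its Dox- mean of 8.34 was below 10, so it passed the filter only through its Dox+ libraries. Dox- 2 and Dox- 3 lay at or under the floor of 3 reads, and the added 1 sets the size in part. The Dox+ to Dox- ratio was 42.4, 155 and 338 for numbers 1, 2 and 3. Fold and p-value are therefore a description. CTSL was called also with each library left out in turn, the log2 fold change then lying between 6.09 and 7.55. Each of those runs kept Dox- 2 or Dox- 3, at or under the floor, so they are a description too. CTSV, a close paralogue of CTSL named after its values were seen, had 9092 ± 973 and 8985 ± 1884 normalized counts (SD, n = 3). How reads were divided between such similar genes is uncertain.

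The other gene of that list that rose was ADGRG1, an adhesion receptor that binds TGM2. Its Dox- libraries held 714, 417 and 353 normalized counts and its Dox+ libraries 1498, 1391 and 1246, a rise of 2.91-fold without overlap (limma adjusted p = 0.021). That call was lost without Dox- 2 (adjusted p = 0.084), Dox- 3 (0.060), Dox+ 1 (0.090), Dox+ 2 (0.057) or Dox+ 3 (0.10), within 0.00010 to 0.10 over 14 alternatives. ITGB3, the integrin β3 chain that TGM2 can accompany at the cell surface, stood at 6769 ± 908 and 3736 ± 1292 (SD, n = 3). Limma did not call it without the block (adjusted p = 0.14), and called it lower with the block (0.013) and without Dox+ 2 (0.024), but not with the block and number 1 left out (0.17). The most abundant members, LRP1, an endocytic receptor for TGM2, the integrin chain ITGB1 and the disulfide isomerase PDIA3, had log2 fold changes of -0.62, 0.60 and 0.32 and did not pass. CTSD, a protease linked to TGM1 processing, had -0.33 and CTSS, another cathepsin, 0.86, and neither passed. At an unadjusted p under 0.05, limma had 4 of the 12 higher and 2 lower, and edgeR and DESeq2 each called 2 higher and 0 lower. Of all 13180 tested genes, 1395 passed that unadjusted threshold, edgeR called 304 higher and 39 lower and DESeq2 542 and 159.

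Among 17 matrix proteins known as cross-linking substrates, 15 were tested, of which 2 rose, 0 fell and 13 did not pass (2.52% higher and 0.357% lower over all tested genes), with a median log2 fold change of -0.39. LTBP1, which tethers latent TGF-beta to the matrix, stood at 5003, 9445 and 7520 normalized counts without doxycycline and at 29603, 54978 and 38530 with it. It rose 5.61-fold (log2 fold change 2.49, SE 0.30, limma adjusted p = 0.0024), by a similar ratio in each number, 5.92, 5.82 and 5.12. FBN1, the microfibril protein fibrillin-1, rose 3.06-fold, from 59319 ± 24139 to 175282 ± 36817 (SD, n = 3, limma adjusted p = 0.030). Its call was lost without Dox- 2 (adjusted p = 0.12), Dox- 3 (0.14), Dox+ 1 (0.11) or Dox+ 3 (0.15) and with no filter on low counts (0.050), within 4.6e-05 to 0.15 over 14 alternatives.

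With the number as a block, 3 of these substrates were called higher and 2 lower, beside 4.86% and 1.65% of all tested genes. MDK, the growth factor midkine, joined the higher ones, with 83.0 ± 35.3 and 289 ± 131 normalized counts (limma adjusted p = 0.0029 with the block, 0.11 without). THBS1, the adhesive glycoprotein thrombospondin-1, and COL2A1, the main collagen of cartilage, were the lower ones, 2.89-fold and 2.78-fold below Dox- (limma adjusted p = 0.0048 and 0.0023, against 0.10 and 0.22 without that term). Limma also called COL2A1 lower without Dox- 1 (adjusted p = 0.019). DESeq2 without the block called MDK higher (adjusted p = 0.0045) and THBS1 and COL2A1 lower (0.0059 and 0.017). The 3 most abundant substrates that did not pass were FN1, fibronectin, with a log2 fold change of -0.18, SPARC, osteonectin, with -0.39, and COL1A2, a chain of type I collagen, with -0.53. At an unadjusted p under 0.05, limma had 3 higher and 5 lower, edgeR called 2 higher and 0 lower and DESeq2 3 higher and 5 lower. Of all 13180 tested genes, 1395 passed that unadjusted threshold, edgeR called 304 higher and 39 lower and DESeq2 542 and 159.

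Substrates of the epidermal enzymes gave another picture, since many had no reads. Of 24 symbols of cornified envelope proteins, 19 had a row, 8 of these had no read in any library and 9 were tested. IVL (involucrin), LORICRIN, KRT1 and CDSN (corneodesmosin) were among those without a read. Limma called 0 of the 9 in either direction (median log2 fold change -0.13), beside 2.52% higher and 0.357% lower of all tested genes. Also 0 were called by edgeR (304 higher and 39 lower of all 13180 genes) and by DESeq2 (542 and 159). At an unadjusted p under 0.05, which 1395 of the 13180 genes passed, limma had 0 higher and 1 lower. The latter was ANXA1, a calcium-binding annexin, at 29646 ± 1581 and 17502 ± 4810 (SD, n = 3, limma adjusted p = 0.15 without and 0.049 with the block, or 0.23 with the block and number 2 left out). The calcium-binding proteins S100A10 and S100A11 had log2 fold changes of -0.13 each, which became 0.01 without Dox+ 2 and 0.22 without Dox- 3.

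Some partners of F13A1 in fibrin chemistry had no reads either. Of 11 genes of fibrin formation and lysis, 4 had no read in any library, F13B (the carrier subunit of factor XIII), FGA, CPB2 and PLG (plasminogen), and 4 were tested. FGB, a fibrinogen chain, stood at 23.8 to 82.6 normalized counts and did not pass (log2 fold change -0.79). PLAU, the urokinase activator of plasminogen, rose 2.42-fold, from 2962 ± 694 to 7153 ± 1653 (SD, n = 3, limma adjusted p = 0.024). Its call was lost without Dox- 2 (adjusted p = 0.089), Dox- 3 (0.075), Dox+ 2 (0.056) or Dox+ 3 (0.14), within 0.00016 to 0.14 over 14 alternatives. PLAT, the tissue activator, stood at 495 ± 117 and 1123 ± 294 (SD, n = 3). Limma called it higher only with the block (adjusted p = 0.013, against 0.060) or without Dox- 1 (0.036). DESeq2 without the block also called it higher (adjusted p = 0.0025), and the range was 0.0025 to 0.18 over 14 alternatives. Limma called 1 of the 4 higher and 0 lower, beside 2.52% and 0.357% of all tested genes. With the block it called 2 and 0, beside 4.86% and 1.65%. None of the 4 was lower by edgeR, by DESeq2 or at an unadjusted p under 0.05 in limma, while 1, 2 and 2 were higher. Of all 13180 tested genes, edgeR called 304 higher and 39 lower, DESeq2 542 and 159, and 1395 passed the unadjusted threshold. The median log2 fold change of the 4 was 0.30.

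**Figure D3:**
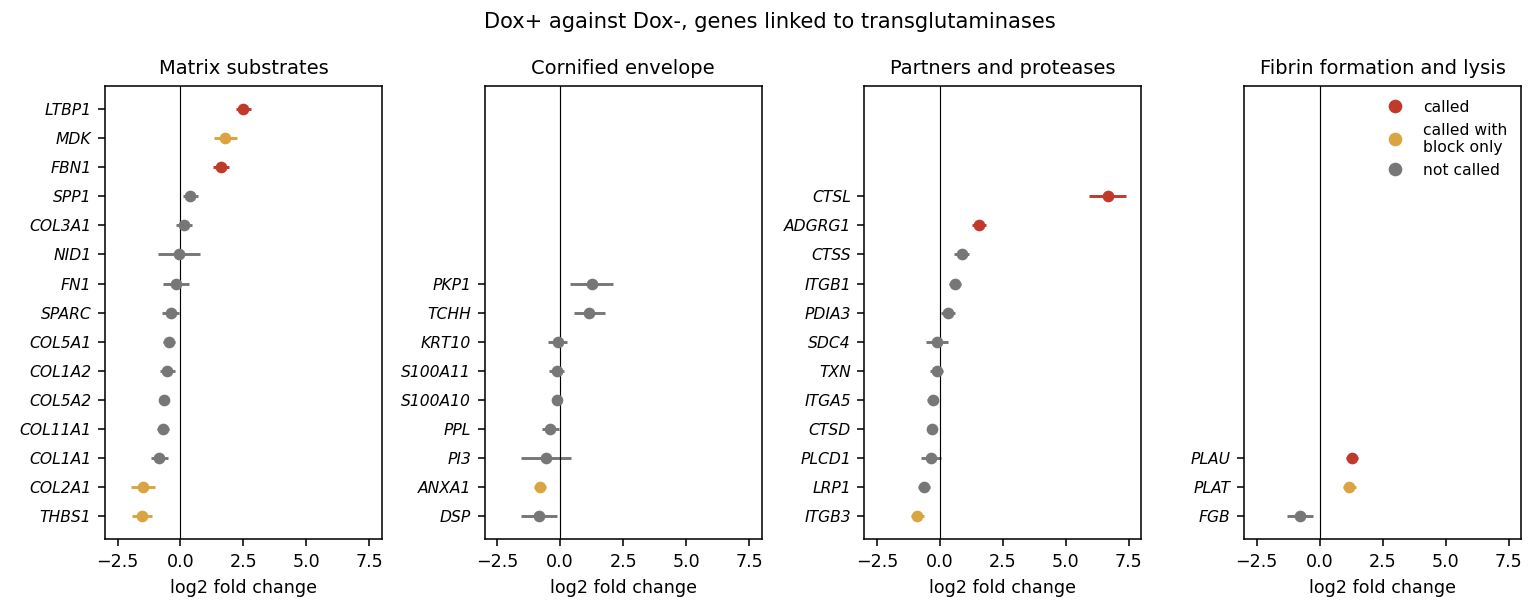
Log2 fold change of Dox+ over Dox- (x axis, points, with bars for 1 SE) for the tested genes of 4 lists linked to transglutaminases, except 1 gene that is not reported. CTSL stands at 6.66, LTBP1 at 2.49, FBN1 at 1.61, ADGRG1 at 1.54 and PLAU at 1.27. These are the 5 genes that limma called without the block, and colours mark those that limma called with the block only.

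Cell types in which these enzymes are prominent were checked by their markers. Of 11 keratinocyte markers, KRT5, KRT1, TP63, DSG1 and DSG3 had no read in any library. The list summed to 773 to 1415 normalized counts in Dox- and 623 to 1414 in Dox+, most of it KRT10 (533 to 1394). Of 11 macrophage markers, C1QA, C1QB and ADGRE1 had no read in any library and PTPRC at most 3. CD68 (138 to 582 normalized counts), CD14 (56.2 to 198), CSF1R and MRC1 had reads in every library. TYROBP had 53, 0 and 0 reads without doxycycline and 14, 0 and 0 with it, so only in number 1. The sum of the macrophage markers was 516, 207 and 462 without doxycycline and 753, 500 and 405 with it. Of 8 megakaryocyte and platelet markers 5 had a row, GP9 and GP1BA among them had no read, and the sum was 34.2 to 130 in Dox- and 71.1 to 172 in Dox+. Of 9 erythroid markers, EPB42, SLC4A1 and ALAS2 had no read, yet HBA was at 21380 to 107970 normalized counts. Limma called none of the tested keratinocyte (2), macrophage (4), platelet (2) or erythroid (3) markers in either direction. Of all tested genes it called 2.52% higher and 0.357% lower, or 4.86% and 1.65% with the block. With the block, CDH1 and HBA were lower (adjusted p = 0.038 and 0.023), but not with number 2 left out as well (0.065 and 0.057), nor was CDH1 without number 1 (0.15). At an unadjusted p under 0.05, limma had 1 keratinocyte and 1 erythroid marker lower, edgeR called 0 and DESeq2 1, an erythroid one. Of all 13180 tested genes, 1395 passed that unadjusted threshold, edgeR called 304 higher and 39 lower and DESeq2 542 and 159. The part of these cell types in the values of the family was not tested.

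In RefSeq's gene order for ARS-UCD2.0, not the build named for the files, TGM6 and TGM3 lie next to each other, as do TGM5 and TGM7. The 3 protein-coding genes on each side of TGM3 were TMC2, SNRPB and TGM6 before it and STK35, PDYN and SIRPA after it. SNRPB, STK35 and SIRPA were tested, with log2 fold changes of 0.13, 0.15 and 0.10. None was called by limma with or without the block, by edgeR or by DESeq2, and 0 had an unadjusted limma p under 0.05. Of all tested genes limma called 2.52% higher and 0.357% lower, or 4.86% and 1.65% with the block. The adjacent TGM6 stayed at 0 reads in the libraries where TGM3 reached 9157.

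Among the neighbours of TGM2, the 4 tested genes VSTM2L, TTI1, RPRD1B and LBP had log2 fold changes of -1.15, -0.42, 0.20 and 0.49, and 0 were called by the same 4 fits or at an unadjusted limma p under 0.05. F13A1 had 4 tested neighbours, SSR1, RREB1, NRN1 and FARS2. NRN1, which encodes neuritin and lies directly beside F13A1, stood at 29363, 9060 and 10931 normalized counts without doxycycline and at 21021, 4047 and 6341 with it. Number 1 was the highest and number 2 the lowest in both groups, as for F13A1. GAS7, LRRC55, CA12 and PLN, which are not among these neighbours, had that order too. The share of all tested genes with that order was not counted. For NRN1 the log2 fold change was -0.81 (SE 0.62, limma adjusted p = 0.80). With the block limma called NRN1 lower (adjusted p = 0.028), a call that was lost with number 2 left out (0.14). SSR1, RREB1 and FARS2 had log2 fold changes of -0.05, 0.02 and -0.18 and did not pass in either fit. Without the block limma called 0 of the 4, as did edgeR and DESeq2, and 0 had an unadjusted limma p under 0.05. The limma shares over all tested genes were again 2.52% higher and 0.357% lower, or 4.86% and 1.65% with the block. The 6 neighbours of TGM1 had log2 fold changes from -0.61 (NOP9) to 0.14 (NEDD8), with no limma adjusted p below 0.73.

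**Figure D4:**
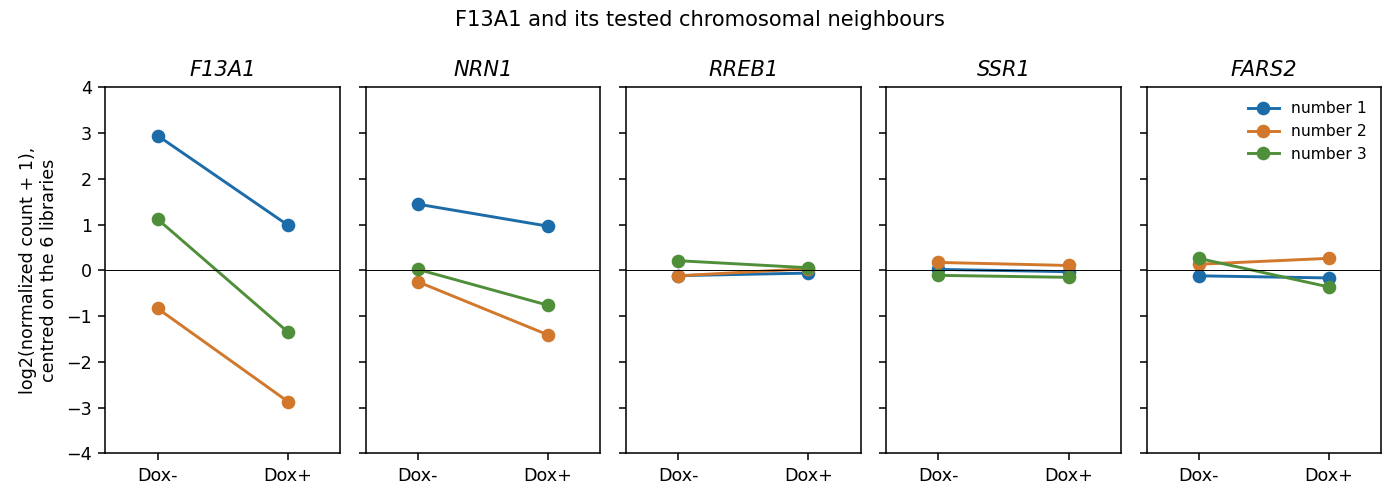
Log2(normalized count + 1), centred on the 6 libraries (y axis), of F13A1 and its 4 tested neighbours, with lines joining libraries of the same number. F13A1 and NRN1 both have number 1 on top and number 2 at the bottom in each group, while RREB1, SSR1 and FARS2 stay near 0.

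Profiles over the 6 libraries were compared by the root mean square difference of centred log2 values, as a description of likeness. The 5 genes with a symbol nearest to TGM3 were PLPPR4, CALCB, NRG1 under 2 identifiers and PI15, at 0.86 to 1.61. For F13A1 they were GAS7, LRRC55, CA12, PLN and IL36A, at 0.60 to 0.85, and NRN1 was in place 24 of the 13179 other tested genes, at 1.02. TGM2 was nearest to DLGAP1, GABRE, UBE2QL1, TMCC3 and NEFH, a neurofilament gene, at 0.54 to 0.60. The nearest to TGM1 were MPP3, HECW2, F12, MS4A13 and KIF12, at 0.40 to 0.57, and each of these 5 also had 0 reads in Dox+ 3.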

How the data were processed

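Whole counts divided by 1 size factor per library were deposited by the authors as normalized signal for 6 libraries, together with a table of log2 fold changes, their standard errors and p-values. The submitters' processing notes name FastQC 0.11.3, MultiQC 1.2, STAR 2.5.2b, Salmon, DESeq2, ARS-UCD1.2 and bosTau9 without roles. For strand setting and annotation version, the sources used here give nothing. Reads were recovered as whole multiples of each library's step (100% of values above 0 within 0.01 read). Depth was 20063379 to 122366790 reads, and a floor of 3 reads was worth 1.32 to 6.98 normalized counts. Intervals cover counting error only.

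Groups were compared two-sided in R 4.3.3 with limma 3.58.1 (trended eBayes, group as the only term) on log2(normalized count + 1). Genes had to reach a mean of 10 (13180 genes), p-values were adjusted by Benjamini-Hochberg, and 0.05 was the threshold. The limma fit was tested on simulated data with the same dispersion for all genes and no effect of the number. Such data lack the pairing of these libraries, so that test covers the working of the code only. Alternatives were other pseudocounts, filters and scaling, edgeR 4.0.16 and DESeq2 1.42.0 on recovered reads, the number as a block and each library left out. Libraries of the same number deviated together from their group means, with correlations over 13180 genes of 0.65, 0.44 and 0.21, so the numbers were taken to pair the libraries. Within groups, no pair of libraries differed by as little as sampling noise. Whether the 3 knees came from different animals is not given in the labels.

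Members and lists were chosen with earlier results of these data known. Named were all 8 symbols, EPB42 and CREB5. In each list these were up to 6 called genes and the 3 most abundant uncalled ones, for called members the neighbours, and for tested members the 5 likest profiles. Genes that limma called with the block but not without it were named after their values were seen. So were genes without reads, single cell type markers, CTSD, CTSS and CTSV. RefSeq's table gave gene order only. It held no transcript lengths, so levels of different genes were not compared. The values of 2 list genes are not reported here, though they stay in their lists' counts and sums.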

Additional observations from a re-analysis of the deposited data

How the results depend on the processing

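The log2 differences of the members kept their sign in every alternative run, except that of TGM1, which was 0.091 without Dox+ 3 (-2.17 to 0.091 with 1 library left out). Those of S100A11 (-0.41 to 0.22, highest without Dox- 3) and S100A10 (-0.27 to 0.013, highest without Dox+ 2) also turned. Counts of calls varied more. Of all tested genes, 332 were higher and 47 lower, against 542 and 159 with DESeq2 and 640 and 218 with the replicate block. With 1 library left out they were 138 to 364 and 9 to 72, and with the block and both libraries of a number left out (added after seeing the data) 576, 961 and 911 higher and 186, 274 and 538 lower (numbers 1, 2 and 3 left out). There, a gene keeps a single residual degree of freedom. Of the matrix substrates, 2 were called, against 1 with no filter, 8 with DESeq2, 5 with the block and 1 to 3 with 1 library left out. Of the cornified envelope genes 0 were called, and 1 with the block. Of the partners 2 were called, and 1 to 2 with 1 library left out. Of the fibrin genes 1 was called, and 2 with DESeq2 or the block and 0 to 2 with 1 library left out. The cause of these changes was not tested. The comparison of transcript with coding length was not run, since no such lengths were used here. Shares of the family's reads do not depend on scaling.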

Other observations

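In the authors' deposited table the log2 fold change was 14.26 (SE 1.36) for TGM3, 1.88 (SE 0.62) for TGM2, -2.10 (SE 0.23) for F13A1, -0.11 (SE 0.40) for TGM1 and 0.02 (SE 0.40) for TGM7. For F13A1, DESeq2 on the recovered reads gave -2.05 (SE 1.34) with group as the only term and -2.15 (SE 0.22) with the number as a block, the latter added after seeing the data. For TGM1 it gave -0.48 (SE 1.23) and -1.06 (SE 1.12), whereas limma gave -1.19 in both fits. The size for this gene of few reads thus varied with the tool and, in DESeq2, with the block. Whether the deposited log2 fold changes were pulled towards no change by their fit was not checked, so they may be another measure.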
